A study of Mus musculus with 12 samples.

Results

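The 34 genes described here encode lysosomal proteins and 2 of the transcription factors that control them. They were chosen by name from what is known of the lysosome and not by a cut on their values, though earlier results of these data were known. All 34 were found among the 35944 genes of the series. By role they comprised 8 cysteine proteases, 3 other proteases, 6 glycosidases, 7 proteins that handle lipids and sphingolipids, 5 membrane proteins including a channel, 3 proton pump proteins and 2 transcription factors. RNA-Seq was performed on 12 tumours of 4T1, a mouse mammary carcinoma cell line, grown in female BALB/c mice aged 6 to 8 weeks. All mice received 100000 cells under the skin of the flank and, from day 5, peritumoural injections every 2 days of 3 µg of extracellular vesicles (EVs) that endothelial cells had released, and tumours were taken on day 21. The EVs were loaded by electroporation with a miRNA mimic. It was miR-142-5p in the first treated group, miR-183-5p in the second and miR-222-3p in the third, and in the ctrl group it was cel-miR-67, a nematode miRNA that mice lack. Each of the 4 groups held 3 tumours, and no group went without EVs. Nothing in the labels ties a tumour number to a shared cage or day, and the whole tumour was sequenced, so that fewer cells of a type and less RNA per cell cannot be told apart.

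Lysosomes are acidic organelles in which hydrolases digest proteins, sugars and lipids that arrive by endocytosis, phagocytosis and autophagy. A V-type ATPase pumps protons into the lumen, cathepsins cleave proteins there, and glycoproteins such as LAMP1 and LAMP2 line the membrane. TFEB and TFE3 are related transcription factors that bind short palindromic letters, known as the CLEAR motif, upstream of many lysosomal genes. Macrophages are rich in lysosomes, and cathepsins released by tumour macrophages, fibroblasts and carcinoma cells are known to cut the extracellular matrix.

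Depth was similar in the 12 libraries, which held between 20285968 and 27021401 estimated reads. Transcripts of the members took between 1.22% and 1.56% of the reads. Some libraries stood apart. In miR-142-5p tumour 3 the mean level of the tested B cell markers was 11.24 on the log2 scale, against 2.913 to 4.293 in the other 11, and in miR-183-5p tumour 3 the skeletal muscle markers stood at 10.52 against 3.259 to 5.024. In addition, the mitochondrial pseudogene Gm28661 took over 1% of the reads it shares with mt-Co2 in 8 libraries and at most 0.324% in the other 4, namely miR-183-5p tumour 3 and all tumours of the miR-222-3p group. That split and the effect of miR-222-3p cannot be told apart.

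The mature mouse miRNAs that the mimics are named for are shown first. The mimics are synthetic duplexes and need not match these entries in full, and the strand listed for the miR-222-3p mimic is shorter at its 3′ end. Each is written 5′ to 3′ with its seed, bases 2 to 8, in capitals, and the 3 seeds differ from each other. The sequences are those of RefSeq for GRCm38.p6.
miR-142-5p, entry mmu-miR-142a-5p, chr11:87756867-87756887, + strand: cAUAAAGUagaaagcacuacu
miR-183-5p, chr6:30169711-30169732, - strand: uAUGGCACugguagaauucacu
miR-222-3p, chrX:19146901-19146923, - strand: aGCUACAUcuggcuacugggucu

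To see which members carry letters that pair with these seeds, the 3′ UTR of the most abundant transcript was searched for the 7 letters complementary to the seed. For miR-142-5p the letters ACTTTAT were found in 5 of the 34 members (14.7%), Atp6v0d2, Mcoln1, Npc1, Npc2 and Ppt1, against 14.2% of 14588 tested genes with a 3′ UTR. For miR-183-5p the letters GTGCCAT were found in 3 members (8.82%), Npc2, Scarb2 and Tpp1, against 9.3% of those genes. For miR-222-3p the letters ATGTAGC were also found in 3 members (8.82%), Ctsb, Scarb2 and Tpp1, against 9.58%. The share of members with a match was thus close to that of all genes for each miRNA. A full match of 8 letters, with an A after the 7, was found once per miRNA, and these sites are shown with the match in capitals on the GRCm38 annotation.
Ppt1, miR-142-5p site, chr4:122857631-122857660, + strand: gaagccctggcACTTTATAgcagagttcat
Npc2, miR-183-5p site, chr12:84757020-84757049, - strand: aaatggaatcaGTGCCATAtgatgaacaga
Scarb2, miR-222-3p site, chr5:92442195-92442224, - strand: tgaaactcactATGTAGCAtaggttgacct

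The values of these 3 genes in the group of the matching miRNA overlapped those in ctrl. Ppt1, which removes palmitate from proteins, had normalised counts of 2759, 2844 and 2749 in the miR-142-5p tumours and 2724, 2908 and 3119 in the ctrl tumours, a log2 fold change of -0.07 (95% interval -0.28 to 0.14). Npc2, which passes cholesterol on within the lumen, had 24095, 26750 and 23715 with miR-183-5p EVs and 25725, 21838 and 21285 in ctrl, a log2 fold change of 0.11 (-0.15 to 0.38). Scarb2, the receptor that brings glucocerebrosidase to the lysosome, had 2769, 2592 and 2373 in the miR-222-3p tumours and 2242, 2389 and 2651 in ctrl, a log2 fold change of 0.09 (-0.14 to 0.31). Each of these intervals lay within a change of 1.5-fold.

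Because Tfeb and Tfe3 are members, the promoters of the members, Tfeb and Tfe3 included, were read for the letters that TFEB and TFE3 bind. RefSeq promoters of 300 bases, 250 before and 50 after the start, were matched for 29 of the 34 members, with 35 promoters in all. For 26 of the 35, the bases after the start were found in a transcript of the gene. The 6 letters CACGTG, the E-box, which reads alike on both strands, were found in 9 of the 35 (25.7%), against 7.15% of 32851 mouse promoters. The longer GTCACGTG, searched on both strands and overlapping the E-box, was found in 7 (20%), against 2.25%. Such a match describes letters and shows no binding. Members were chosen as lysosomal genes, and the motif is known from such genes, so the higher share is no independent test. The 32851 promoters were not limited to the genes tested here. The 7 promoters with GTCACGTG belonged to Atp6v0d1, Ctsa, Ctsd, Glb1, Lamp1, Lgmn and Mcoln1. A window is shown for 4 of them whose values are described below, with GTCACGTG or its reverse complement in capitals. The start is that of the promoter entry and need not be the outermost one annotated. The windows of Ctsd, Lgmn and Mcoln1 lie within the annotated span of the gene.
Ctsd, chr7:142387907-142387936, - strand, capitals from 98 bases upstream of the start: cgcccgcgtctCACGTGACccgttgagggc
Lamp1, chr8:13159122-13159151, + strand, capitals from 28 bases upstream: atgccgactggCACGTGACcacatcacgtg
Lgmn, chr12:102439125-102439154, - strand, E-box from 49 bases upstream: atggaatgtctGTCACGTGgtccattttat
Mcoln1, chr8:3500463-3500492, + strand, capitals from 45 bases upstream: ggcgccccgctCACGTGACcgcggcgcatg

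Lysosomal transcripts were abundant in all 12 tumours. On the TPM scale, which corrects for transcript length and so allows genes to be compared, 17 of the 34 members ranked in the top 10% of the 15459 genes tested, and 2, Ctsl and Psap, in the top 1%. The lowest was Atp6v0d2 at 1.1 to 2.84 TPM. Members also varied little between tumours. The median SD of log2 normalised counts over the 12 tumours was 0.144 for the members, against 0.229 for all genes tested. This SD depends on abundance, for which the genes were not matched. The difference is therefore not shown to be a trait of lysosomal genes. In 30 of 34 members the highest tumour was less than 2-fold above the lowest, and the 4 others were Ctsk, Atp6v0d2, Gpnmb and Ctss. The share of all genes within that range was not counted.

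**Figure D1:**
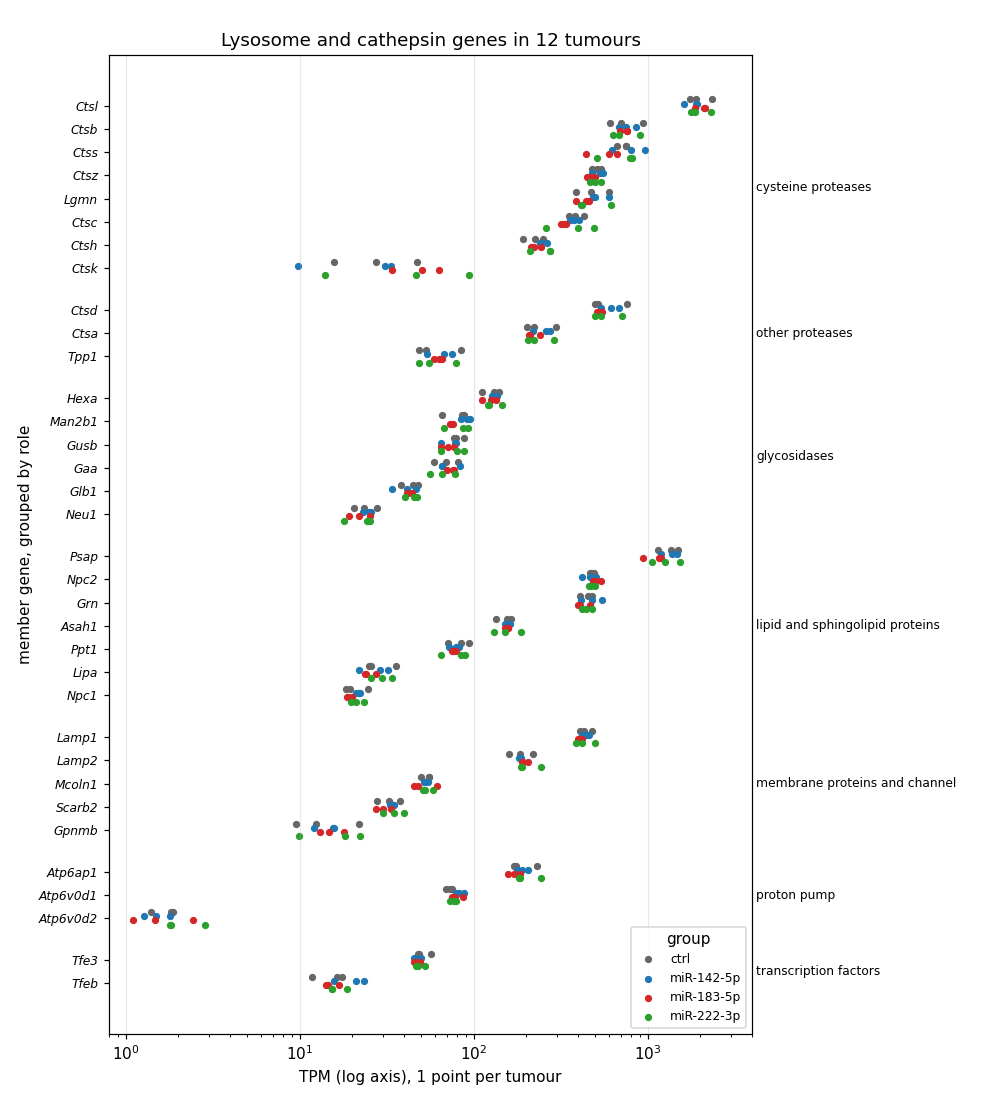
TPM (log axis) of the 34 lysosome and cathepsin genes, 1 point per tumour coloured by group and genes ordered by role. The 12 points of most genes lie close together and the groups are intermixed, whereas Ctsk spreads from 9.78 to 94.5 TPM.

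The cysteine proteases held the most transcript, with a summed TPM of 4459 to 5860 over their 8 members. Ctsl encodes cathepsin L, which also processes the MHC class II invariant chain in the thymus, and was the most abundant member at 1612 to 2341 TPM. In normalised counts, which correct for depth and transcript length and are given below in the order of tumours 1 to 3 of a group, Ctsl stood at 54873, 45566 and 58795 in ctrl, 46221, 51415 and 48425 with miR-142-5p EVs, 56121, 58861 and 50620 with miR-183-5p EVs and 57543, 47733 and 52379 with miR-222-3p EVs. The 4 groups overlapped, and no tumour departed by more than 1.29-fold from another.

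Cathepsin B, a protease of lysosomes that also acts outside cells, followed at 606 to 935 TPM. Ctsb stood at 31549, 32723 and 42140 in ctrl, 35166, 36476 and 38445 with miR-142-5p EVs, 32964, 37835 and 36918 with miR-183-5p EVs and 40760, 32691 and 31789 with miR-222-3p EVs. The lowest and the highest of the 12 values were both ctrl tumours. Cathepsin H, an aminopeptidase, had normalised counts of 4204, 3224 and 4032 in ctrl, 4444, 4576 and 3918 with miR-142-5p EVs, 3662, 4322 and 3878 with miR-183-5p EVs and 4425, 4727 and 3832 with miR-222-3p EVs, and its lowest value was a ctrl tumour.

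Cathepsin S is the protease of antigen-presenting cells that trims the invariant chain from MHC class II. Ctss (Ctss, ENSMUSG00000038642.10, chr3:95526786-95556403, + strand) ranged from 441 to 967 TPM. Its normalised counts were 15498, 12483 and 13445 in ctrl, 16560, 18772 and 11243 with miR-142-5p EVs, 11471, 13222 and 8565 with miR-183-5p EVs and 14251, 15575 and 10331 with miR-222-3p EVs. The extremes, miR-142-5p tumour 2 and miR-183-5p tumour 3, were 2.19-fold apart, with the groups overlapping. Legumain, the asparaginyl endopeptidase that activates several cathepsins, showed less spread. Lgmn (Lgmn, ENSMUSG00000021190.14, chr12:102394084-102439813, - strand) stood at 14243, 10504 and 15828 in ctrl, 15000, 16997 and 12616 with miR-142-5p EVs, 12838, 12789 and 11007 with miR-183-5p EVs and 16113, 11668 and 12086 with miR-222-3p EVs, and miR-142-5p tumour 2 was again the highest.

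Cathepsin K, a collagenase best known from osteoclasts and also made by activated fibroblasts, was the member that varied most. Ctsk (Ctsk, ENSMUSG00000028111.4, chr3:95499256-95509362, + strand) had normalised counts of 653, 1001 and 322 in ctrl, 779, 216 and 631 with miR-142-5p EVs, 1096, 1425 and 743 with miR-183-5p EVs and 286, 1021 and 2160 with miR-222-3p EVs. These values span 10-fold, from miR-142-5p tumour 2 to miR-222-3p tumour 3, and the groups overlapped. The SD of its log2 values over the 12 tumours was 0.977, against a median of 0.144 for the members. Of 5 osteoclast markers, Calcr was at no more than 0.0156 TPM in any tumour, whereas Itgb3, which other cells also make, was at 12.5 to 23.3 TPM, Ocstamp at 2.11 to 4.36, Dcstamp at 0.245 to 2.35 and Oscar at 0.164 to 1.16. The mean log2 level of the 4 that could be tested was, like Ctsk, lowest in miR-142-5p tumour 2 (5.668) and highest in miR-222-3p tumour 3 (7.198). The part of osteoclast-type cells in the level of Ctsk was not tested. The remaining cysteine proteases, Ctsc and Ctsz, ranged from 262 to 491 and from 446 to 556 TPM.

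Among the other proteases, Ctsd encodes the aspartic protease cathepsin D. It stood at 17901, 15347 and 22711 in ctrl, 18337, 19711 and 20431 with miR-142-5p EVs, 16169, 17853 and 16960 with miR-183-5p EVs and 21116, 15887 and 18013 with miR-222-3p EVs. Tumour 3 of ctrl was highest and tumour 2 of ctrl lowest. Ctsa, a carboxypeptidase that protects neuraminidase and galactosidase, ranged from 203 to 298 TPM, and Tpp1, an aminopeptidase lost in a neuronal storage disease, from 48.2 to 84.6 TPM.

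The 6 glycosidases, which split sugars from glycoproteins and glycolipids, had a summed TPM of 384 to 468. Man2b1 (Man2b1, ENSMUSG00000005142.10, chr8:85083270-85098282, + strand), the lysosomal alpha-mannosidase, had normalised counts of 4157, 4845 and 4801 in ctrl, 5284, 5638 and 4965 with miR-142-5p EVs, 4326, 4557 and 4318 with miR-183-5p EVs and 5044, 5038 and 4122 with miR-222-3p EVs. All 3 miR-142-5p tumours lay above all 3 ctrl and all 3 miR-183-5p tumours, but not above all miR-222-3p tumours. Gaa, the acid glucosidase that degrades glycogen, stood at 2984, 3143 and 3545 in ctrl, 3264, 3101 and 3617 with miR-142-5p EVs, 3537, 3718 and 3313 with miR-183-5p EVs and 3394, 2615 and 3215 with miR-222-3p EVs, with overlap between all groups. Hexa, Gusb, Glb1 and Neu1 ranged within 1.29-fold, 1.36-fold, 1.27-fold and 1.47-fold over the 12 tumours.

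Of the 7 proteins that handle lipids and sphingolipids, Psap (Psap, ENSMUSG00000004207.14, chr10:60277627-60302597, + strand) encodes prosaposin, from which the saposins that present sphingolipids to their hydrolases are cut. Its level was 935 to 1531 TPM, and its normalised counts were 59024, 45023 and 56289 in ctrl, 51489, 59904 and 51887 with miR-142-5p EVs, 47215, 48185 and 37962 with miR-183-5p EVs and 57394, 50085 and 44464 with miR-222-3p EVs. Tumour 3 of the miR-183-5p group was lowest and miR-142-5p tumour 2 highest, and all 3 miR-183-5p tumours lay below all 3 miR-142-5p tumours. Grn encodes progranulin, a secreted and lysosomal protein made by macrophages and carcinoma cells. It stood at 16049, 13072 and 14580 in ctrl, 16663, 17938 and 12612 with miR-142-5p EVs, 13325, 15690 and 13144 with miR-183-5p EVs and 14548, 14515 and 14312 with miR-222-3p EVs, and the groups overlapped. Npc2, Asah1, Ppt1, Lipa and Npc1 had median levels of 479, 156, 79, 26.6 and 20.5 TPM.

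The membrane glycoproteins were among the steadiest members. Lamp1 stood at 14763, 14091 and 15081 in ctrl, 15918, 15547 and 13090 with miR-142-5p EVs, 13217, 14589 and 13627 with miR-183-5p EVs and 15522, 12966 and 14688 with miR-222-3p EVs, a range of 1.23-fold. Lamp2, which also serves chaperone-mediated autophagy, stood at 7264, 7611 and 8634 in ctrl, 8188, 8033 and 7267 with miR-142-5p EVs, 7942, 8955 and 8247 with miR-183-5p EVs and 9684, 8021 and 8237 with miR-222-3p EVs, with miR-222-3p tumour 1 highest and ctrl tumour 1 lowest. Mcoln1, the calcium channel through which lysosomes signal to TFEB, had 1145, 1140 and 1102 in ctrl, 1182, 1182 and 1052 with miR-142-5p EVs, 961, 1344 and 1034 with miR-183-5p EVs and 1153, 1118 and 1135 with miR-222-3p EVs, and the 2 extremes both belonged to the miR-183-5p group. Gpnmb, a glycoprotein that macrophages express under lysosomal stress, varied more, with 677, 467 and 1031 in ctrl, 841, 613 and 743 with miR-142-5p EVs, 742, 674 and 917 with miR-183-5p EVs and 1040, 495 and 961 with miR-222-3p EVs. Its lowest tumours were ctrl tumour 2 and miR-222-3p tumour 2, and its highest miR-222-3p tumour 1 and ctrl tumour 3, so both extremes recurred in both groups.

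For the proton pump, Atp6ap1 encodes an accessory subunit that helps to assemble the V-ATPase. Its normalised counts were 5324, 4935 and 6225 in ctrl, 5843, 5924 and 4793 with miR-142-5p EVs, 4844, 5470 and 4595 with miR-183-5p EVs and 6514, 5187 and 5560 with miR-222-3p EVs. Of the 2 forms of subunit d, Atp6v0d1 is made in most cells and ranged from 69.1 to 87.9 TPM. Atp6v0d2 is the form of osteoclasts and some macrophages and was sparse, with normalised counts of 59, 69.3 and 68.3 in ctrl, 53.2, 59.3 and 65.5 with miR-142-5p EVs, 94.4, 59.3 and 43.4 with miR-183-5p EVs and 65.8, 69.4 and 116 with miR-222-3p EVs. The 3 miR-142-5p tumours lay below the 3 miR-222-3p tumours by a narrow margin, whereas ctrl and miR-183-5p tumours overlapped both.

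Both transcription factors were expressed at moderate levels. Tfeb stood at 381, 249 and 353 in ctrl, 365, 459 and 472 with miR-142-5p EVs, 312, 377 and 309 with miR-183-5p EVs and 308, 329 and 425 with miR-222-3p EVs. Its highest values were miR-142-5p tumours 2 and 3, and its lowest was ctrl tumour 2. Tfe3 was the more abundant on the TPM scale, with medians of 48.3 against 16.1 TPM, and varied less. It stood at 2297, 2094 and 2352 in ctrl, 2364, 2194 and 1884 with miR-142-5p EVs, 2020, 2258 and 2045 with miR-183-5p EVs and 2178, 2068 and 2233 with miR-222-3p EVs.

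To determine whether these genes differed with the miRNA loaded into the EVs, the groups were compared with DESeq2 over all genes, adjusting by the Benjamini-Hochberg method. As every group received EVs, an effect of the EVs themselves was not tested. None of the 34 members passed an adjusted p of 0.05 in any of the 6 comparisons. edgeR and limma also called 0 members in each. The comparisons share tumours, so they are not independent of one another.

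In the miR-142-5p tumours against ctrl, 0 members passed, and DESeq2 called 0.00649% of all genes. At an unadjusted p under 0.05 there were 0 members, against 3.56% of all genes. The fold change was above 0 for 23 members and below 0 for 11, with a median of 0.05 on the log2 scale, against -0.00 and 48.8% above 0 for all genes. Tfeb came closest, with a log2 fold change of 0.40 ± 0.21 (SE), and Man2b1 was next at 0.20 ± 0.11. Man2b1 was the 1 member higher in every miR-142-5p tumour than in every ctrl tumour, which held for 3.12% of all genes. The 95% interval lay within a 2-fold change for 33 members and within 1.5-fold for 29.

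In the miR-183-5p tumours against ctrl, 0 members passed, as did 0% of all genes. There were 0 members at an unadjusted p under 0.05, against 3.22% of all genes. The fold change was above 0 for 13 members and below 0 for 21, with a median of -0.06 against -0.01 for all genes. Psap had the smallest p, with a log2 fold change of -0.27 ± 0.15 (SE), and Ctss stood at -0.32 ± 0.22. Without miR-183-5p tumour 3, which held the muscle transcripts, they were -0.17 and -0.16. Ctsk had the largest fold change, 0.72 with a 95% interval of -0.72 to 2.17, and ranged from 0.40 to 1.16 when each tumour was left out in turn. Ctsc, which encodes the dipeptidyl peptidase that activates granule proteases, was the 1 member lower in every miR-183-5p tumour than in every ctrl tumour, as 4.75% of all genes were. The interval lay within 2-fold for 33 members and within 1.5-fold for 30.

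In the miR-222-3p tumours against ctrl, 0 members passed, with 0.026% of all genes called, and 0 had an unadjusted p under 0.05, against 2.29%. Above 0 were 16 members and below 0 were 18, with a median of -0.01, the same as that of all genes. Ctsh (0.18 ± 0.14) and Lamp2 (0.14 ± 0.11) had the smallest p. Ctsk had the largest fold change, 0.81 with a 95% interval of -0.63 to 2.25, and it rested on 1 tumour, since without miR-222-3p tumour 3 it was -0.01. For 31 members the interval lay within a 1.5-fold change and for 32 within 2-fold.

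The miR-183-5p tumours were lower than the miR-142-5p tumours for most members, but 0 passed, with 0.0519% of all genes called by DESeq2. The fold change was below 0 for 26 of 34 members, with a median of -0.09 against -0.00 for all genes, of which 49.5% were above 0. An unadjusted p under 0.05 was found for 7.95% of all genes, in either direction, and for no higher a share of the members. There were 2 such members of 34, both lower in the miR-183-5p tumours. These were Man2b1 and Ctss. Man2b1 stood at 4401 ± 136 against 5296 ± 336 (SD), a log2 fold change of -0.27 ± 0.11 (SE, DESeq2 adjusted p = 0.477). Ctss stood at 11086 ± 2352 against 15525 ± 3870 (SD), a log2 fold change of -0.49 ± 0.22 (SE, DESeq2 adjusted p = 0.533). Ctsc, Ctsd, Npc1, Psap and Man2b1, 5 of 34 members, were lower in every miR-183-5p tumour than in every miR-142-5p tumour, which 6.43% of all genes were. No member was higher in every such tumour, against 5.92% of all genes. The largest fold change went the other way and was that of Ctsk, 1.01 with a 95% interval of -0.44 to 2.45, or 0.63 without miR-142-5p tumour 2. Without miR-183-5p tumour 3 the fold changes of Man2b1 and Ctss were -0.25 and -0.33, and without miR-142-5p tumour 3, which held the B cell transcripts, they were -0.31 and -0.67.

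Some marker lists also differed in level between the miR-183-5p and miR-142-5p tumours, where no member passed. The mean log2 level of the macrophage markers, 10 genes, was 10.45 to 11.01 in the miR-183-5p tumours and 11.01 to 11.57 in the miR-142-5p tumours, so these ranges met. Fibroblast markers, 8 genes, were at 11.2 to 11.28 and at 10.15 to 11.02, and neutrophil markers, 8 genes, at 9.842 to 10.24 and at 8.936 to 9.607. Osteoclast markers, 4 tested genes, were at 6.638 to 6.853 and at 5.668 to 6.5. Adipocyte markers were at 4.067 to 5.008 and at 3.131 to 3.722. That list rested on 3 tested genes with low median levels of 0.493 to 0.998 TPM. The carcinoma, endothelial, T cell, B cell and skeletal muscle lists overlapped between these groups. The part of these cells in the fold changes of the members was not tested.

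In the miR-183-5p tumours against the miR-222-3p tumours, 0 members passed, with 0.0324% of all genes called. An unadjusted p under 0.05 was found for 0 members and 3.24% of all genes. The fold change was below 0 for 27 members, with a median of -0.07, against -0.00 and 49.2% above 0 for all genes. Gaa at 0.20 ± 0.13 and Atp6ap1 at -0.21 ± 0.14 had the smallest p. In the miR-142-5p tumours against the miR-222-3p tumours, 0 members passed, with 0.0389% of all genes called, and 0 had an unadjusted p under 0.05, against 3.59%. Ctsk stood at -1.09 with an interval of -2.54 to 0.35, and at -0.27 without miR-222-3p tumour 3. Atp6v0d2, at -0.50 (-1.17 to 0.17), was the 1 member lower in every miR-142-5p tumour, as were 3.29% of all genes.

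**Figure D2:**
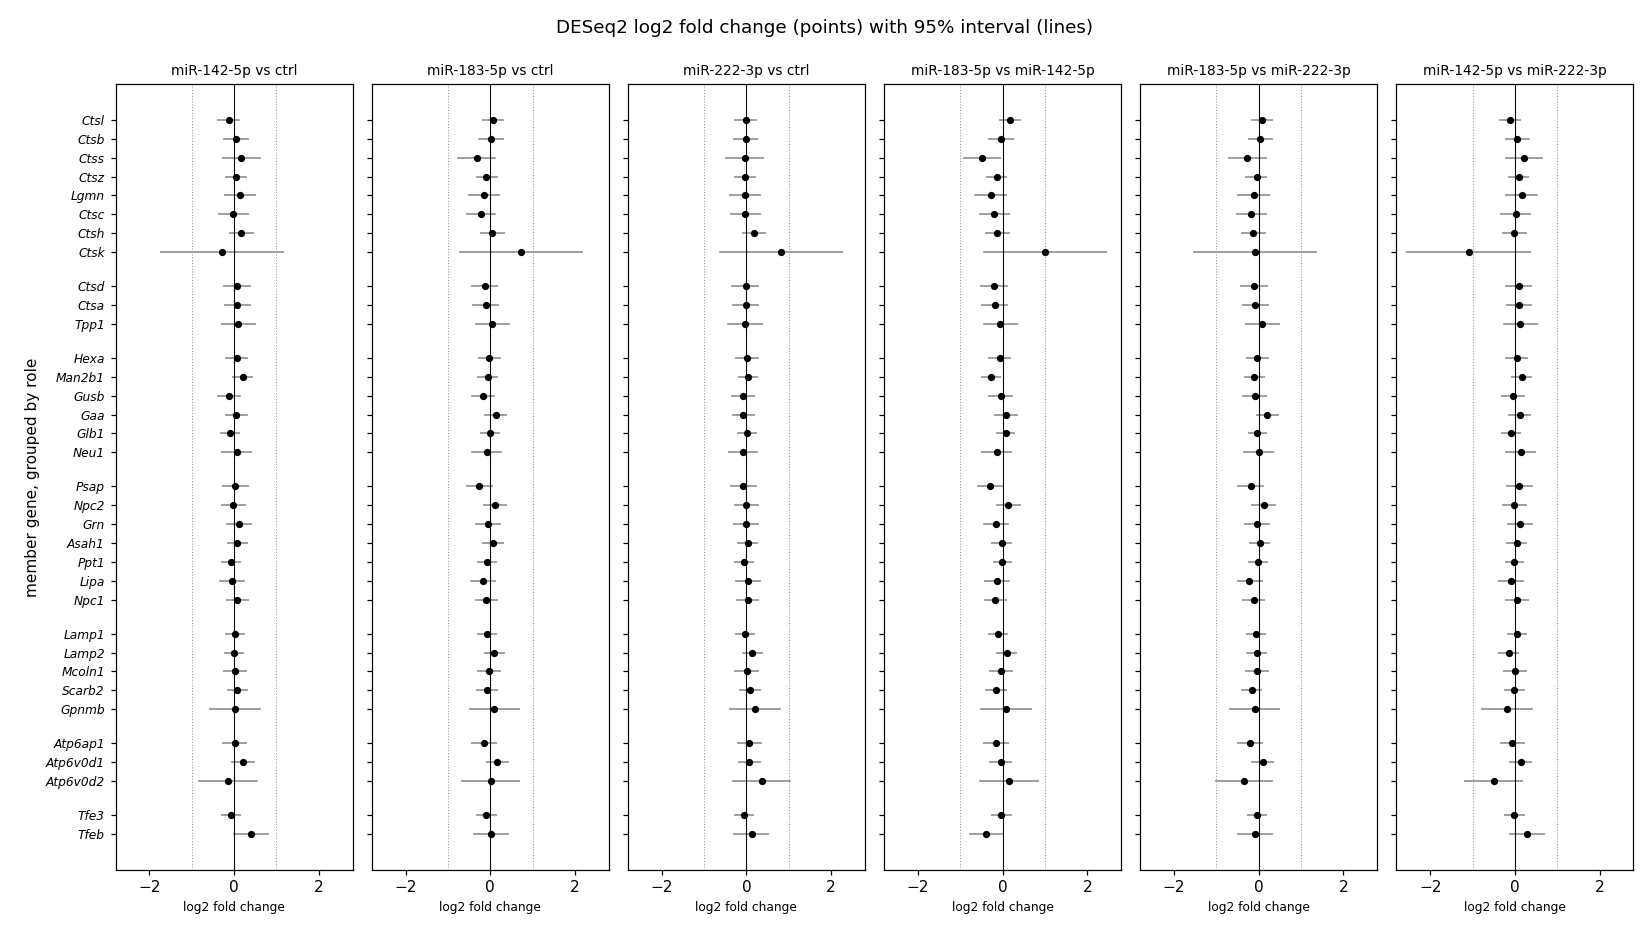
DESeq2 log2 fold change of each member (points) with its 95% interval (lines) in the 6 comparisons, with dotted lines at a 2-fold change. Nearly all intervals are narrow and cross 0, and those of Ctsk are the widest, reaching from -2.54 to 0.35 between the miR-142-5p and miR-222-3p tumours.

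Other genes of the lysosome were tested alongside. A further 72 genes, other hydrolases, membrane proteins, V-ATPase subunits and cathepsin inhibitors, were all tested and 0 passed in any comparison. Against ctrl, 2 of the 72 (2.78%) had an unadjusted p under 0.05 in the miR-142-5p tumours, where 3.56% of all genes did, 3 (4.17%) in the miR-183-5p tumours, against 3.22%, and 0 in the miR-222-3p tumours, against 2.29%. Between miRNA groups, 4 (5.56%) had such a p in the miR-183-5p tumours against the miR-142-5p tumours, all with lower values in the former, where 7.95% of all genes did. The counts were 3 (4.17%) in the miR-183-5p tumours against the miR-222-3p tumours, with 3.24% of all genes, and 0 in the miR-142-5p tumours against the miR-222-3p tumours, with 3.59%. These shares were near or below those of all genes. The lowest adjusted p belonged to Laptm5, a lysosomal membrane protein of blood cells, with 5321 ± 337 normalised counts in the miR-183-5p tumours and 7797 ± 1297 in the miR-142-5p tumours (SD), a log2 fold change of -0.55 (DESeq2 adjusted p = 0.0977). Clcn7, the chloride and proton exchanger of the lysosomal membrane, was at 1062 ± 54.8 in the miR-183-5p tumours and 1317 ± 47.4 in ctrl, a log2 fold change of -0.31 ± 0.11 (SE) that did not pass.

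To describe how the members varied among tumours, their levels were set beside markers of the cell types that a tumour can hold. For each gene the Pearson correlation over the 12 tumours with the mean log2 level of a marker list was tested by a two-sided permutation test with 100000 resamples and adjusted over 15425 genes, separately for macrophage, neutrophil, fibroblast and carcinoma markers. The r values of genes share libraries and scaling, and the macrophage and fibroblast lists were themselves inversely related (r = -0.789, permutation p = 0.00188, rho = -0.853, permutation p = 0.00076, and r = -0.749 without the 2 tumours farthest from the median).

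With the macrophage markers, such as Csf1r, Adgre1 and C1qa, 30 of 34 members had an r above 0. The median r was 0.45 for the members and 0.01 for all genes. An unadjusted p under 0.05 with r above 0 was found for 14 members (9.59% of all genes), and 4 members passed after adjustment (1.3% of all genes). No member passed with an r below 0 (1.27% of all genes). The 4 were Psap, Lgmn, Ctsa and Ctss.

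Psap had the closest relation to the macrophage markers, with r = 0.931 (permutation p = 2e-05, adjusted p = 0.0201) and rho = 0.895 (permutation p = 0.0002, adjusted p = 0.0428). Its r was 0.856 without the 2 tumours farthest from the median marker level and 0.925 after group means were removed. Lgmn followed with r = 0.895 (permutation p = 0.00012, adjusted p = 0.0247) and rho = 0.888 (permutation p = 0.00024, adjusted p = 0.0428), and its r was 0.890 without the 2 tumours and 0.902 within groups. For Ctsa, r was 0.856 (permutation p = 0.00041, adjusted p = 0.0353) and rho 0.874 (permutation p = 0.00042, adjusted p = 0.0456), with 0.869 and 0.855 under the same settings. The r of these 3 genes stayed above 0.8 in both settings, but 0 of all 15425 genes passed the adjustment in either, so these settings do not tell the members from other genes. Without the tumours with lymphoid or muscle RNA 0 members passed with r above 0, as did 0.0519% of all genes.

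Ctss held less firmly. Its r was 0.835 (permutation p = 0.00095, adjusted p = 0.0456), whereas rho was 0.776 (permutation p = 0.00427, adjusted p = 0.0953), and r was 0.579 without the 2 tumours farthest from the median, miR-183-5p tumour 3 and miR-142-5p tumour 2. The r of Ctss was thus lower without those tumours. No gene passed the adjustment without them, so that threshold cannot tell Ctss from Psap, Lgmn and Ctsa there. Within the 8 libraries with over 1% of Gm28661, r with the macrophage markers was 0.864 for Psap, 0.945 for Lgmn, 0.88 for Ctsa and 0.759 for Ctss. The other 4 libraries were too few for a value.

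The fibroblast markers, such as Col1a1, Pdgfra and Fap, gave the opposite pattern for most members. The median r was -0.44 for the members and -0.01 for all genes, and 28 members were below 0. After adjustment, 1 member passed with r above 0 (2.13% of all genes) and 2 with r below 0 (1.3% of all genes). The positive one was Ctsk, with r = 0.933 (permutation p = 3e-05, adjusted p = 0.00798) and rho = 0.881 (permutation p = 0.00034, adjusted p = 0.0325). Its r was 0.877 without the 2 tumours farthest from the median, 0.932 within groups and 0.948 within the 8 libraries. It did not pass without the 2 tumours, where 0.0908% of all genes passed with r above 0, or after group means were removed, where 0% did. The collagenase was thus high in the tumours with high collagen transcripts, and its r with the macrophage markers was -0.693 (permutation p = 0.0123, adjusted p = 0.121). The negative ones were Psap (r = -0.857, permutation p = 0.00038, adjusted p = 0.0258) and Ctsa (r = -0.845, permutation p = 0.00064, adjusted p = 0.0329). As the macrophage and fibroblast lists ran inversely, these relations cannot be told apart from those with macrophage markers.

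**Figure D3:**
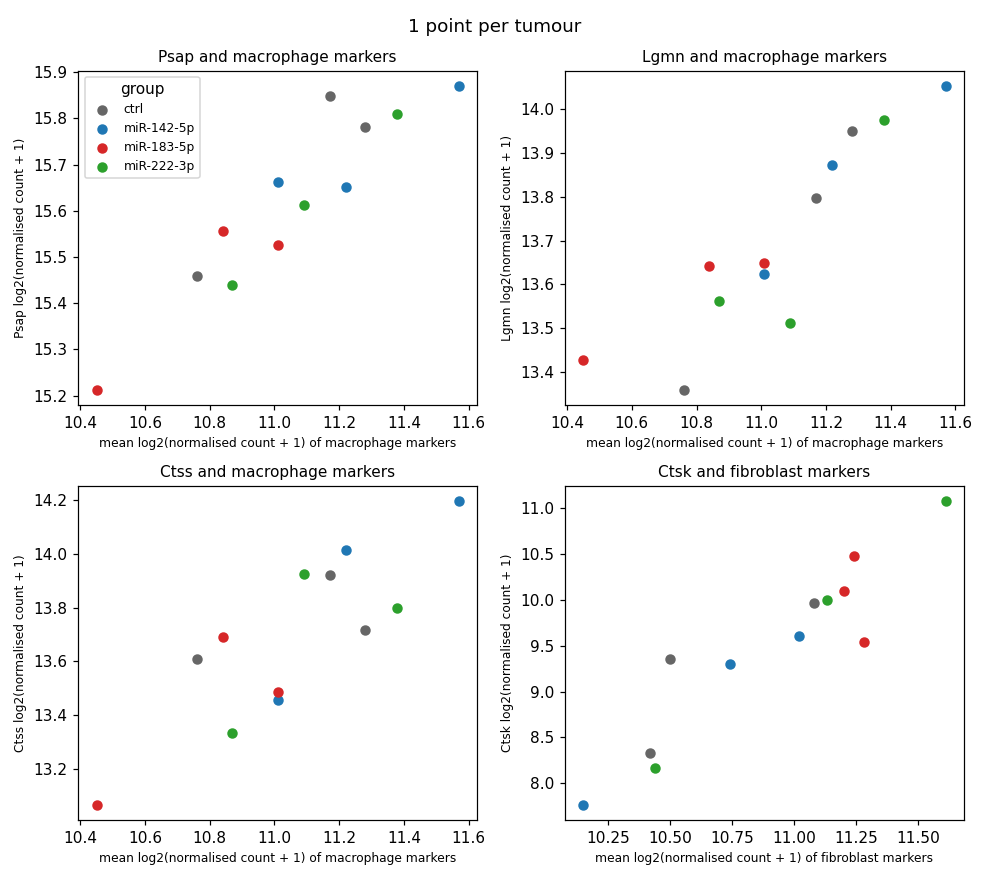
Log2(normalised count + 1) of Psap, Lgmn and Ctss against the mean level of macrophage markers, and of Ctsk against that of fibroblast markers, 1 point per tumour coloured by group. The 3 first genes increase with the macrophage markers (r = 0.931, 0.895 and 0.835) and Ctsk with the fibroblast markers (r = 0.933), with tumours of different groups along the same trend.

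Neither neutrophil nor carcinoma markers gave a member that passed. With the neutrophil markers, 0 members passed in either direction by the permutation test, as did 0% of all genes, and at an unadjusted p under 0.05 there were 0 members with r above 0 (4.69% of all genes) and 3 below 0 (4.64%), which were Man2b1, Ctsc and Gusb. With the carcinoma markers, such as Epcam and Krt8, 0 members passed with r above 0 (0.201% of all genes) and 0 with r below 0 (0.182%). At an unadjusted p under 0.05, 2 members were above 0 (12.4% of all genes), Npc2 and Ctsk, and 3 below 0 (11.9%), Lipa, Ctsa and Ctsd. The largest were Lipa, the acid lipase of lysosomes, at r = -0.777 (permutation p = 0.0037, adjusted p = 0.0846) and Npc2 at r = 0.753 (permutation p = 0.00468, adjusted p = 0.0878).

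**Figure D4:**
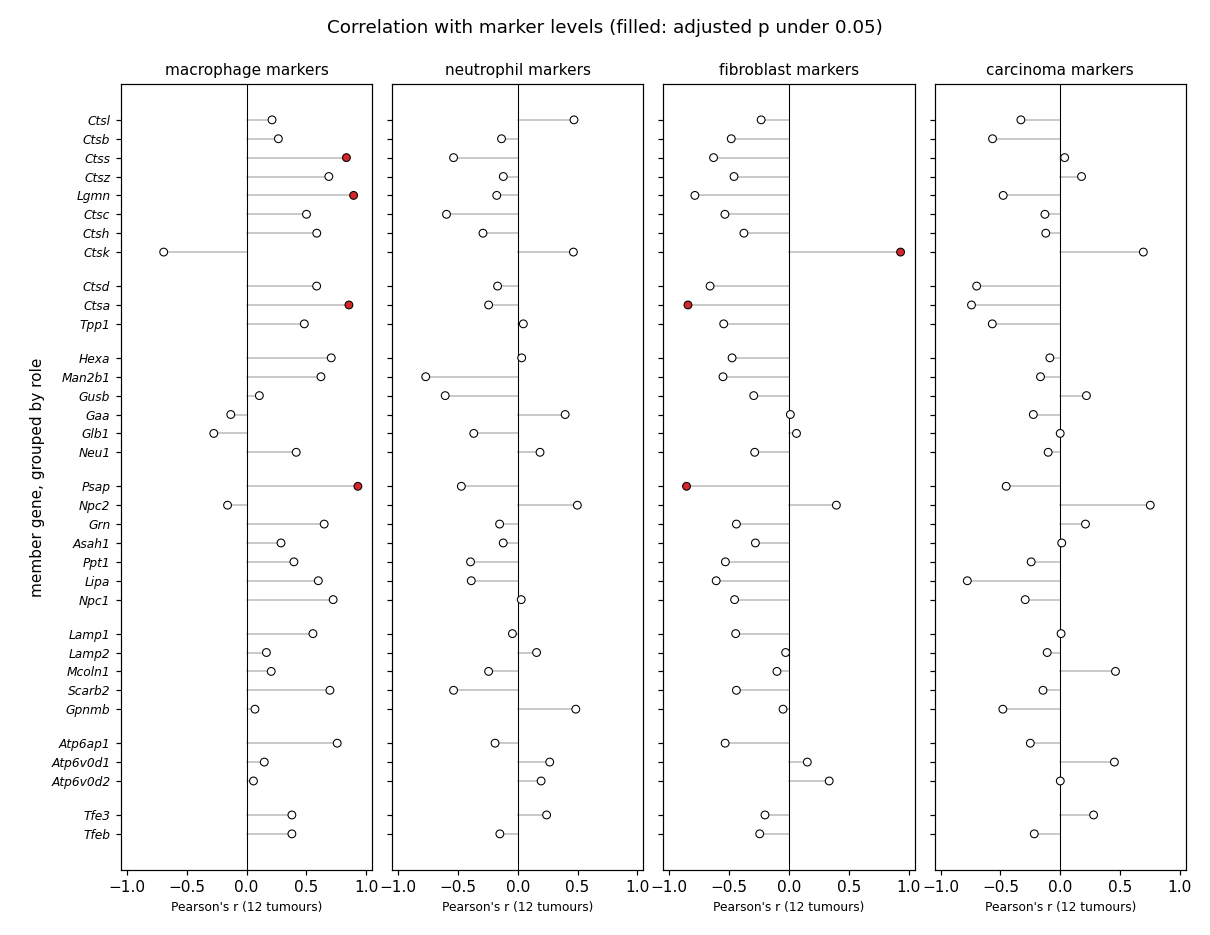
Pearson's r over 12 tumours of each member with the mean level of macrophage, neutrophil, fibroblast and carcinoma markers, filled where the adjusted p is under 0.05. Most members lie to the right for macrophage markers (median 0.45) and to the left for fibroblast markers (median -0.44), and Ctsk is the reverse of the other cysteine proteases.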

How the data were processed

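The authors quantified reads with Salmon against mouse transcripts (GRCm38, per the labels) and deposited, per transcript, an estimated count of reads and a TPM value. Identifiers were matched without version to GENCODE M21 (98.3%). Counts were added up by gene, then rounded, with transcript length as an offset. A gene needed 10 reads in 3 libraries to be tested (15459 genes). The main test was DESeq2 1.42.0 (Wald, all 12 libraries, group as factor, Benjamini-Hochberg, threshold 0.05). A few genes per comparison received no p as outliers of a count. Fold changes are unshrunken and intervals are 95%. Alternatives used edgeR 4.0.16 (quasi-likelihood), limma 3.58.1 on log2(TPM + 1), TMM factors, other filters, no offset, a replicate block and leaving out tumours. The scripts were tested on simulated data, where DESeq2 gave more false calls than its nominal rate when the spread was drawn widely. Marker correlations used log2(normalised count + 1) and permutation tests, whose smallest p is 1e-05 with 100000 resamples. After removing group means, tumours were permuted only within groups, and the smallest p is larger. Given in every tumour were 14 members listed by name and the 2 members with the smallest p in each comparison, 19 in all. Members, lists and tests were chosen with earlier results of these data known. The authors' methods and files name different Ensembl releases. Reads shared by similar transcripts were split by Salmon. P-values measure the spread between these tumours.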

Additional observations from a re-analysis of the deposited data

Results flagged for a closer look

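For 2 members, all 3 tumours of one miRNA group lay above the ctrl mean and all 3 of another lay below it. The same held for 5.08% of all 15459 genes tested, and 2 of 34 members is 5.88%, so the share of members was near that of all genes. Atp6v0d2, the V-ATPase subunit form of osteoclasts and some macrophages, was below the ctrl mean in the miR-142-5p tumours and above it in the miR-222-3p tumours. The direct comparison gave a log2 fold change of -0.50 ± 0.34 (SE) for the miR-142-5p tumours against the miR-222-3p tumours, with an unadjusted p of 0.145 that did not pass. The nearest values were 65.5 and 65.8 normalised counts, beside a ctrl mean of 65.5. Without miR-222-3p tumour 3, the fold change of Atp6v0d2 was -0.18. Man2b1, the lysosomal alpha-mannosidase, was above the ctrl mean in the miR-142-5p tumours and below it in the miR-183-5p tumours. Its direct log2 fold change of -0.27 ± 0.11 (SE) between the miR-183-5p and the miR-142-5p group did not pass (DESeq2 adjusted p = 0.477).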

How the results depend on the processing

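The count of members called was 0 in all 87 alternative fits of the 6 comparisons, the replicate block (0 in each comparison) and leave-one-out fits included, and the lowest adjusted p in any was 0.296 (DESeq2 on the 2 groups alone, Man2b1). Of 1647 alternative fold changes of the named members, 1629 moved by less than 1 SE, 18 by more, and 137 changed sign, none of them called by a test. Tumours with the same number did not deviate together (mean correlation -0.0682, range -0.568 to 0.375 over 18 pairs). No pairing by number was thus seen, but 3 tumours per group are too few to exclude one. The filter of 50 reads in every library lost 1 member, Atp6v0d2. Fits on libraries with over 1% of Gm28661 could not include the miR-222-3p tumours.

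The counts of members that passed with the markers depended on the setting. With macrophage markers, 4 members passed with r above 0, against 8 on log2(TPM + 1), 0 after removing group means, 0 without the 2 tumours farthest from the median, and 0 without the tumours with lymphoid or muscle RNA, an alternative chosen after seeing the data. The share of all genes that passed was 1.3%, against 2.93%, 0%, 0% and 0.0519% in these settings, so the counts of members moved with those of all genes. After removing group means, tumours were permuted only within groups, for each marker list. The smallest possible p is then large, and a gene can pass only if many others reach it. The 0 there does not show a lost relation. For the 4 members r was then 0.925 (Psap), 0.902 (Lgmn), 0.855 (Ctsa) and 0.759 (Ctss). With fibroblast markers, 1 member passed with r above 0, against 0 after removing group means and 0 without the 2 farthest tumours (all genes 2.13%, 0% and 0.0908%). With r below 0, 2 passed, against 0 in those settings, 1 on log2(TPM + 1) and 1 without the lymphoid and muscle tumours (all genes 1.3%, then 0%, 0.013%, 0.253% and 0.558%). The 3 tumours per group limit the precision, and the 95% interval lay within a 1.5-fold change for 27 to 31 of 34 members by comparison.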
